A study of Mus musculus with 4 samples.

Results

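The Schlafen genes described here are Slfn1, Slfn2, Slfn4, Slfn5, Slfn8 and Slfn9, taken by symbol from a table of 24028 mouse genes. All 6 were found, and all 6 reached the mean of 1 FPKM over the 4 libraries that was required for testing. FPKM counts fragments relative to gene length and to the library's read total. The table holds 4 RNA sequencing libraries of macrophages sorted by flow cytometry from the sciatic nerve of female mice at day 3 after nerve injury, 2 libraries from young mice of 3 months and 2 from aged mice of 15 months. All mice, young and aged, carried a single copy of each of the knock-in reporters Cx3cr1-GFP and Ccr2-RFP (Cx3cr1-GFP+/- :Ccr2-RFP+/-), and the cells are labelled CCR2+ Cx3cr1+. Per the series' design text, 7 to 8 mice were used for each time point and pooled into 2 replicates, so each library is a mixture of animals, and no uninjured nerve was analysed here. The comparison asks how transcripts of macrophages in the injured nerve differ with the age of the animal.

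Schlafen genes encode proteins found in immune cells of mammals, and many of them are induced by type I interferon, the cytokine that acts through the receptor chains Ifnar1 and Ifnar2 and the factors Stat2 and Irf9. The mouse proteins fall into short (Slfn1 and Slfn2), intermediate (Slfn3 and Slfn4) and long forms (Slfn5, Slfn8, Slfn9 and Slfn14), and the long forms carry a helicase-like region at their C-terminal end. Members of the family bind or cut transfer RNA, limit proliferation or restrict viruses. In mice, loss of Slfn2 function costs T cells and monocytes their quiescent state, and Slfn4 is regulated during the activation and differentiation of macrophages.

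The 6 genes lie in a single cluster on chromosome 11 that holds 12 genes of the table between positions 82942341 and 83286726 (RefSeq, GRCm38.p6), a span of 344.4 kb. Slfn5 (82951349 to 82964850), Slfn2 (83065112 to 83070678), Slfn1 (83116820 to 83122670) and Slfn4 (83175172 to 83190216) are transcribed from the plus strand, and Slfn9 (82974316 to 82991830) and Slfn8 (83002125 to 83020810) from the minus strand. The 250 bases before the transcript start that RefSeq's promoter table uses for each gene were searched on both strands for GAAANNGAAA, the core of the interferon-stimulated response element that a complex with Stat2 and Irf9 binds. For Slfn5 that start is position 82952102, 753 bases inside the gene span given above, and for Slfn4 it is 83175186, 14 bases inside, so these windows do not precede the whole gene. This core was present once each in the windows of Slfn5, Slfn8 and Slfn9, and no match was found in those of Slfn1, Slfn2 and Slfn4. It was present in 3.04% of the 27025 RefSeq promoter windows of the same length. The stretches around the 3 matches are shown because their genes share the age difference described below. Slfn4 and Slfn3, whose windows have no match, were also lower in both aged libraries, and a link between the core and the difference was not tested. They are given 5′ to 3′ on the strand of the gene (GRCm38.p6), with the matched core in capitals, which reads as its reverse complement in Slfn8 and Slfn9.
Slfn5, chr11:82951917-82951986, plus strand: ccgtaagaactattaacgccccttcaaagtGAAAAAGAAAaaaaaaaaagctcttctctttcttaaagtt
Slfn8, chr11:83020819-83020888, minus strand: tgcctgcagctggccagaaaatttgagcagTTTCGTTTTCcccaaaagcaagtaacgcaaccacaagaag
Slfn9, chr11:82991836-82991905, minus strand: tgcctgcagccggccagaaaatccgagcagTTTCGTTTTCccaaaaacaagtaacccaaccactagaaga

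In Slfn8 and Slfn9 the match begins 48 and 45 bases before that transcript start, and 84% of the 250 bases were identical between these neighbouring genes. The other 14 pairs of members had between 54.8% and 62.4% identical bases in a global alignment. The gamma-activated sequence TTCNNNGAA, present in 7.18% of the windows, had no match in any of the 6 windows. Slfn1, Slfn2 and Slfn4 instead share the ETS family site CAGGAAGT. This site is not particular to them, since the window of Slfn3 also holds it, on both strands. It was present in 2.73% of the windows and was searched for after these windows had been read, so its presence is a description. The matches of Slfn1, Slfn2 and Slfn4, again as the reverse complement and in capitals, lie 74, 55 and 73 bases before the same transcript starts. None of the motif matches overlapped another.
Slfn1, chr11:83116716-83116783, plus strand: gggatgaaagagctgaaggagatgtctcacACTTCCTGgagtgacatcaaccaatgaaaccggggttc
Slfn2, chr11:83065027-83065094, plus strand: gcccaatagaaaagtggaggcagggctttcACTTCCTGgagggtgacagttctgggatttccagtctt
Slfn4, chr11:83175083-83175150, plus strand: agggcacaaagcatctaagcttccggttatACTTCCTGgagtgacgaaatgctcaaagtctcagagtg

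The libraries held between 8613360 and 11489336 reads, and 19897 to 21361 genes had a value above 0. The 7 macrophage markers were above 0 in all 4 libraries, with a summed level of 11482 and 13755 FPKM in young against 8935 and 12074 FPKM in aged libraries. Most of each sum was Lyz2, and the markers did not share an order. Csf1r was higher in both aged libraries than in both young ones, Adgre1 and Fcgr1 were lower, and the remaining markers overlapped. Of the markers of other cells, the 4 Schwann cell genes summed to 7.06 to 24.6 FPKM, the 4 fibroblast genes to 20.7 to 103.6 FPKM, the 3 endothelial genes to 6.94 to 16.5 FPKM and the 7 neutrophil genes found in the table to 12.4 to 21.0 FPKM. The 7 T and NK cell genes summed to 6.13 to 8.20 FPKM in 3 libraries and to 103.4 FPKM in aged replicate 2, where Cd3g alone was 97.8 FPKM. The 5 B cell genes summed to 7.23 to 30.4 FPKM and the 3 genes of plasmacytoid dendritic cells to 44.7 to 85.4 FPKM, most of it Tcf4, which other cells also use. Cd3e was listed at 0 in aged replicate 1 and Ngp in aged replicate 2.

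Slfn4, Slfn5, Slfn8 and Slfn9 were lower in both aged libraries than in both young libraries, by 1.79-fold to 2.48-fold in the means, while the aged and young libraries overlapped in Slfn2 and Slfn1. None of these differences passed the test over all genes. limma's test on log2(FPKM + 1), with p-values adjusted by Benjamini-Hochberg over 11656 genes, called 0 members and 0% of all genes, with 0.567 as the lowest adjusted p of any gene. At an unadjusted p below 0.05, 4 of the 6 members were lower in aged cells and none was higher, beside 568 genes lower (4.87% of all tested) and 205 higher (1.76%). The aged pair lay wholly below the young pair in 4 of 6 members and in 26.2% of all genes tested, and above them in no member and in 11.8% of all genes. The median log2 difference of aged minus young was -0.82 over the 6 members and -0.09 over all genes tested. In these RNA samples, fewer cells that express a gene and less of its RNA in each cell cannot be told apart. The labels do not say which mice went into which pool, so these p-values measure the spread between the pools, which may be technical.

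Slfn4, the intermediate form that macrophages regulate as they differentiate, had the lowest p of the family. Its level was 175 and 176 FPKM in the young pair and 74.3 and 102 FPKM in the aged pair. The young libraries were close together, the aged libraries differed from each other, and the lower young library was 1.72-fold above the higher aged library. The mean level was 176 ± 1.15 FPKM at 3 months and 88.0 ± 19.4 FPKM at 15 months (SD, n = 2 libraries), a log2 difference of -1.01 (SE 0.22, 95% interval -1.55 to -0.46). In limma's test its unadjusted p was 0.00402, the 51st lowest of 11656, and its adjusted p was 0.740. Between 2538 and 7959 reads lay behind each value, so that counting error was at most 1.98% of a value, less than the gap between the aged libraries. Of the 50-base stretches of Slfn4, 11.3% also occur in other genes, among them 6.28% in Slfn3 and 1.72% in Slfn2. The values of Slfn4 are therefore uncertain by a further amount that was not measured.

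Slfn5, the first of the long forms along the cluster, is induced by interferon in mouse and human cells. It was 56.0 and 62.4 FPKM at 3 months and 28.7 and 37.2 FPKM at 15 months. The groups did not overlap, with the lower young library 1.50-fold above the higher aged library. The log2 difference was -0.84 (SE 0.23, 95% interval -1.39 to -0.28), with an unadjusted p of 0.0101 and an adjusted p of 0.740 in limma's test. The antisense transcript Slfn5os, which overlaps exons of Slfn5 by 559 bases, had the same order, at 9.55 and 12.6 FPKM in young against 4.05 and 6.28 FPKM in aged libraries (limma, adjusted p 0.740). Of the 50-base stretches of Slfn5os, 45.5% also occur in Slfn5, and 7.38% of those of Slfn5 occur in Slfn5os. The strand setting of the counting is not given here, so reads of the antisense transcript cannot be told apart from those of Slfn5.

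Slfn8 and Slfn9 are neighbouring long forms on the minus strand and belong to the branch of the family that includes human SLFN11 and SLFN13. Slfn8 was 41.7 and 47.8 FPKM in the young pair and 24.5 and 25.6 FPKM in the aged pair. Its aged libraries lay close together and apart from the young libraries, with a log2 difference of -0.81 (SE 0.21, 95% interval -1.32 to -0.30), an unadjusted p of 0.00830 and an adjusted p of 0.740 in limma's test. Slfn9, the least abundant member, was 6.32 and 7.36 FPKM at 3 months and 3.15 and 2.37 FPKM at 15 months. Its groups did not overlap either, and the lower young library was 2.00-fold above the higher aged library. The log2 difference was -1.06 (SE 0.31, 95% interval -1.81 to -0.32), with an unadjusted p of 0.0128 and an adjusted p of 0.740 in limma's test. With only 96 to 321 reads behind its values, the counting error was up to 10.2% of a value. The exact 95% Poisson intervals of the aged values, 2.59 to 3.80 and 1.92 to 2.90 FPKM, lay below those of the young values, 5.61 to 7.08 and 6.58 to 8.21 FPKM. Such intervals cover counting error only, since amplified fragments are not independent molecules. Of the 50-base stretches of Slfn8, 9.3% also occur in Slfn9 and 10.1% in Slfn10-ps, and 8.1% of those of Slfn9 occur in Slfn10-ps and 6.52% in the more abundant Slfn8, so the values of both are uncertain, by an amount that was not measured.

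Slfn2, the short form that maintains quiescence of T cells and monocytes, was the most abundant member in each library and the 124th of 24028 genes by mean FPKM. It was 466 and 252 FPKM in young against 441 and 355 FPKM in aged libraries. Young replicate 2 stood lowest and young replicate 1 highest, with both aged libraries between them. The log2 difference of 0.21 (SE 0.32) had a 95% interval from -0.58 to 1.00 and an adjusted p of 0.904 in limma's test, and it was -0.24 without young replicate 2 and 0.65 without young replicate 1. With 4509 to 8913 reads in a library, its counting error was at most 1.49%, far less than the gap within the young pair.

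Slfn1, the other short form, which slowed the growth of mouse fibroblasts made to express it, was 24.4 and 47.2 FPKM in the young pair and 23.5 and 52.6 FPKM in the aged pair. In each age 1 library was about as high as the other age's high library and the other about as low, so that the spread lay within the ages. The log2 difference was 0.05 (SE 0.46, 95% interval -1.08 to 1.18; limma, adjusted p 0.986). It was -0.41 without young replicate 1, 0.51 without young replicate 2, 0.62 without aged replicate 1 and -0.51 without aged replicate 2.

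**Figure D1:**
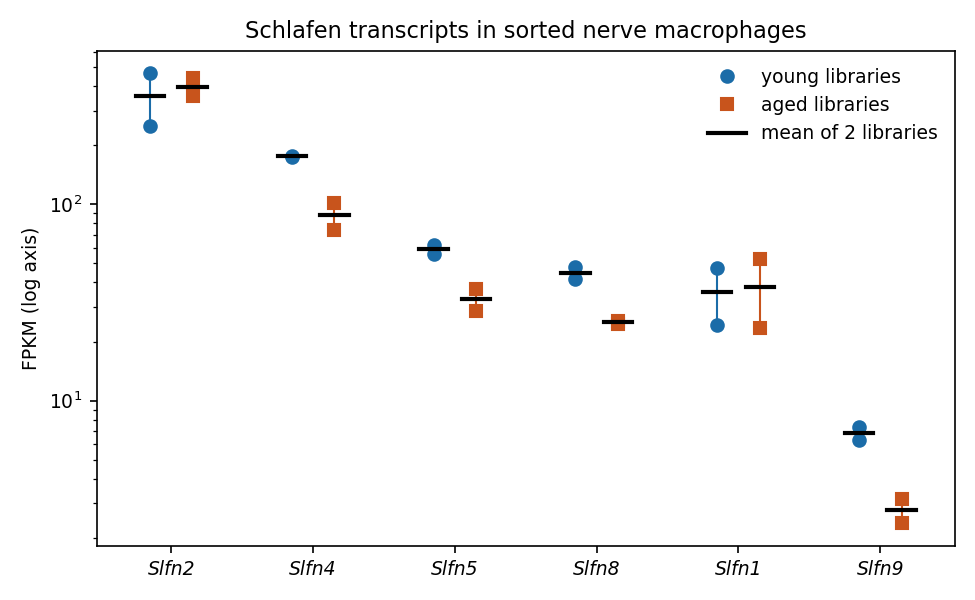
FPKM of the 6 Schlafen genes on a log axis, with circles for the 2 young libraries, squares for the 2 aged libraries and a bar for each mean. Slfn4, Slfn5, Slfn8 and Slfn9 have both aged libraries below both young ones, and in Slfn2 and Slfn1 the ages overlap.

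FPKM is per length, but uneven amplification and shared sequence can also move the values of different genes, so an order between genes is approximate. By mean FPKM, the order in young cells was Slfn2 (359 FPKM), Slfn4 (176), Slfn5 (59.2), Slfn8 (44.7), Slfn1 (35.8) and Slfn9 (6.84). In aged cells it was Slfn2 (398 FPKM), Slfn4 (88.0), Slfn1 (38.1), Slfn5 (33.0), Slfn8 (25.0) and Slfn9 (2.76). The neighbours in this order that overlapped between libraries were Slfn8 and Slfn1 in young cells, and Slfn1 with Slfn5 in aged cells, where the range of Slfn1 also covered that of Slfn8. All other neighbours in the order were apart in both libraries of that age.

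The 6 genes together amounted to 769 and 593 FPKM at 3 months and 596 and 575 FPKM at 15 months. The sums of 3 libraries were close together, with young replicate 1 higher. Slfn2 made up 60.6% and 42.5% of the sum in young and 74.1% and 61.8% in aged libraries. Slfn4 made up 22.7% and 29.8% in young and 12.5% and 17.7% in aged libraries. Leaving Slfn2 out, the sum was 303 and 341 FPKM in young against 154 and 220 FPKM in aged libraries. The family total thus overlapped between the ages, while the share of Slfn2 was higher, and that of Slfn4 lower, in both aged libraries than in either young library.

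**Figure D2:**
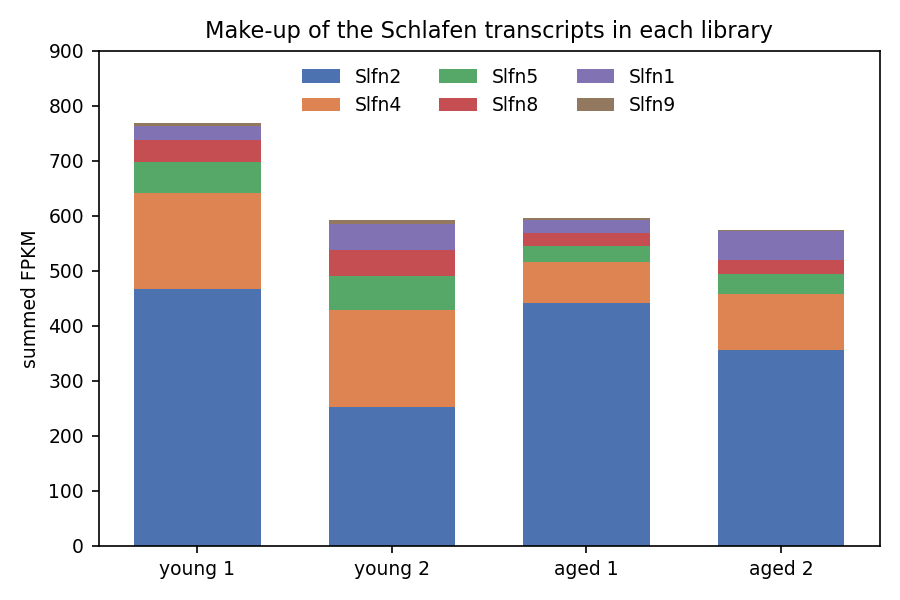
Stacked FPKM of the 6 genes in each library, with bars starting at 0. Slfn2 is the largest block in each bar, and the Slfn4 block is 175 and 176 FPKM in the young pair and 74.3 and 102 FPKM in the aged pair.

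Ratios between members within a library do not depend on how the libraries were scaled against each other. The level of Slfn2 was 2.67 and 1.43 times that of Slfn4 in the young libraries and 5.94 and 3.49 times in the aged libraries, so that the ages did not overlap. The ratio of Slfn5 to Slfn8 was 1.34 and 1.31 in young and 1.17 and 1.46 in aged libraries, with the young values inside the aged range. Of the 8 pairs that set Slfn1 or Slfn2 against Slfn4, Slfn5, Slfn8 or Slfn9, 7 had log2 ratios, taken without a pseudocount, that did not overlap between the ages, and the mean log2 ratio of all 8 was 0.88 to 1.53 higher in aged cells. The 1 pair of these that overlapped was Slfn1 with Slfn8. Of the other 7 pairs, 3 did not overlap, and the changes lay between -0.18 and 0.48. With 2 libraries against 2, an exact two-sided permutation test cannot give a p below 0.333, so none of the 15 pairs was tested. The grouping of members used here coincides with which of them were lower in these same aged libraries. The 8 pairs therefore restate that difference, and pairs that share a gene are not separate observations.

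The other Schlafen symbols of the table were also read. Slfn3, an intermediate form next to Slfn4, was 5.22 and 6.42 FPKM at 3 months and 1.99 and 3.79 FPKM at 15 months, with both aged libraries below both young ones (log2 difference -0.84, SE 0.36; limma, adjusted p 0.740). It rested on 34 to 137 reads, and 7.39% of its 50-base stretches also occur in Slfn4. The transcribed pseudogene Slfn10-ps was 17.4 and 12.1 FPKM in young against 10.3 and 12.5 FPKM in aged libraries, which overlap. Slfn14, the long form known from platelets and red cells, was below the minimum for testing, at 0.164 and 2.48 FPKM in the young pair and 0.533 and 0.351 FPKM in the aged pair. Slfnl1, a Schlafen-like gene on chromosome 4, lay between 0.148 and 0.198 FPKM.

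Within the cluster, the estimates were not all lower along the chromosome. Slfn2 and Slfn1 stand between Slfn8 and Slfn4 and had log2 differences of 0.21 and 0.05. Their 95% intervals were -0.58 to 1.00 and -1.08 to 1.18, and that of Slfn1 includes the estimates of Slfn4, Slfn5, Slfn8 and Slfn9. A break within the cluster is thus not established. Slfn10-ps, between Slfn8 and Slfn2, had a difference of -0.34. Between Slfn3 and Slfn14 lies AI662270, at 26.7 and 17.6 FPKM at 3 months and 13.1 and 9.89 FPKM at 15 months (log2 difference -0.87, SE 0.30; limma, adjusted p 0.740). The 5 nearest tested genes before the cluster, Zfp830, Lig3, Rffl, Rad51d and Nle1, had log2 differences of -0.28 to 0.30. Of the genes after it, Ap2b1 was -0.26, Taf15 -0.59, the chemokine gene Ccl5 -0.53 and the chemokine gene Ccl9 0.04. The 95% intervals of these 9 neighbours include 0, and no gene of this region passed the test. In Rffl, Ap2b1, Taf15 and Ccl5 the aged pair nevertheless lay wholly below the young pair, as in 26.2% of all genes tested. In Zfp830, Lig3, Rad51d, Nle1 and Ccl9 the ages overlapped.

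**Figure D3:**
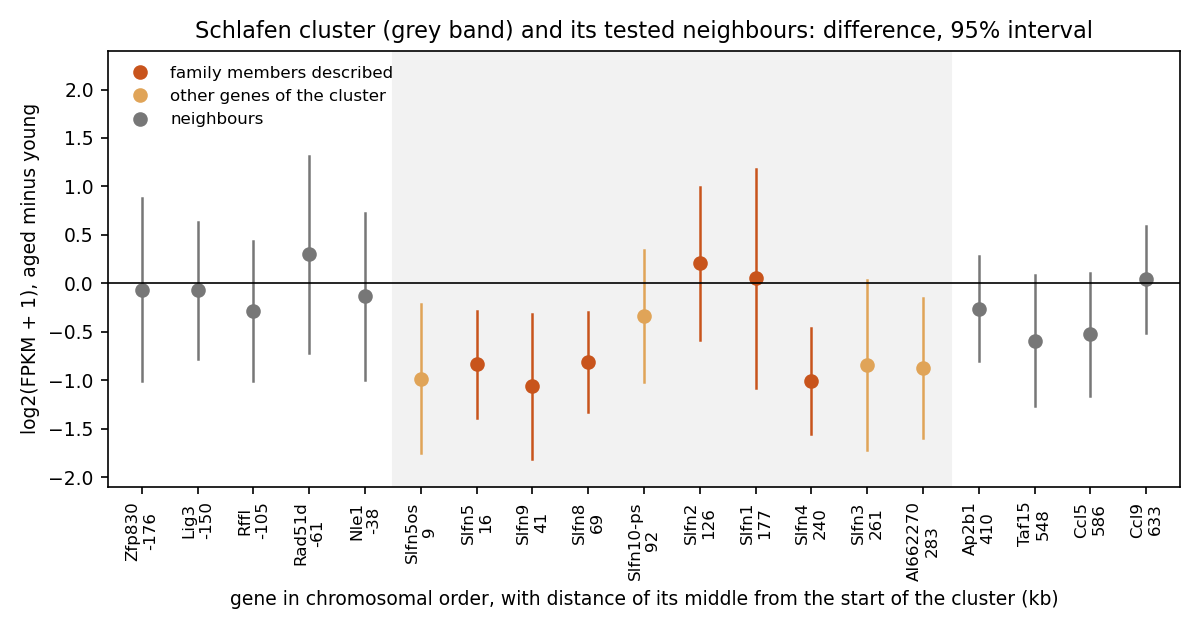
Difference of log2(FPKM + 1), aged minus young, with 95% intervals from limma, for the tested genes of the Schlafen cluster and the 9 neighbours named, in chromosomal order with the distance from the cluster start in kb. Slfn2 and Slfn1 lie near 0 in the middle of the cluster, with values of -0.81 to -1.06 for Slfn8, Slfn5, Slfn4 and Slfn9 around them.

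Other genes of the interferon pathway were read from a list that holds no Schlafen gene. Of 40 interferon-induced genes, 39 were tested, none passed adjusted over all genes, 18 had an unadjusted p below 0.05 and were lower in aged cells, beside 4.87% of all genes, and none was higher. In 31 of the 39, the aged pair lay wholly below the young pair, beside 26.2% of all genes, and the median log2 difference was -0.65. The most abundant of them were Ifi204, a DNA sensor, at 186 and 183 FPKM in young against 99.7 and 121 FPKM in aged libraries, and Irf7, which drives interferon gene transcription, at 113 and 169 FPKM in the young pair and 87.3 and 73.0 FPKM in the aged pair. The log2 differences were -0.75 (SE 0.20) for Ifi204 and -0.78 (SE 0.26) for Irf7, so Slfn5 (-0.84) and Slfn8 (-0.81) differed by about as much as these genes. Members and list come from the same libraries and were chosen with the earlier results known.

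The receptors and factors that carry the interferon signal had a median difference closer to that of all genes, a comparison that was not tested. Of 21 such genes, 20 were tested and none passed, with a median of -0.23. At an unadjusted p below 0.05 in limma's test, 3 were lower in aged cells, beside 4.87% of all genes, and none was higher. Irf7, which is among these 3, and Usp18 are also in the interferon-induced list, so the lists are not separate. The aged pair lay wholly below the young pair in 9 of the 20 and wholly above it in 2, beside 26.2% and 11.8% of all genes. Ifngr1, a chain of the receptor for interferon gamma, and Socs3, a feedback inhibitor, were the most abundant, at 337 and 341 FPKM and 232 and 197 FPKM in young and 388 and 316 FPKM and 231 and 229 FPKM in aged libraries. Ifnar1 was 69.2 and 55.9 FPKM at 3 months and 54.6 and 55.5 FPKM at 15 months, with both aged values just below the lower young one. The other chain, Ifnar2, named after its values were seen, was 66.2 and 69.3 FPKM in the young pair and 99.2 and 83.0 FPKM in the aged pair, with both aged values above both young ones (log2 difference 0.42, SE 0.20; limma, adjusted p 0.740). Irf9 was 38.2 and 46.7 FPKM in the young pair and 41.2 and 46.9 FPKM in the aged pair, with overlapping ages. The ages did not overlap in Stat2, at 43.2 and 64.6 FPKM at 3 months and 35.4 and 29.7 FPKM at 15 months (log2 difference -0.69, SE 0.27; limma, adjusted p 0.740). Irf1 was 44.9 and 42.6 FPKM in young against 35.3 and 26.8 FPKM in aged libraries, also apart (-0.49, SE 0.23; limma, adjusted p 0.740). The interferon gene Ifnb1 was below the minimum for testing, at 1.02 FPKM in young replicate 1 and 0.121 to 0.151 FPKM in the other libraries.

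**Figure D4:**
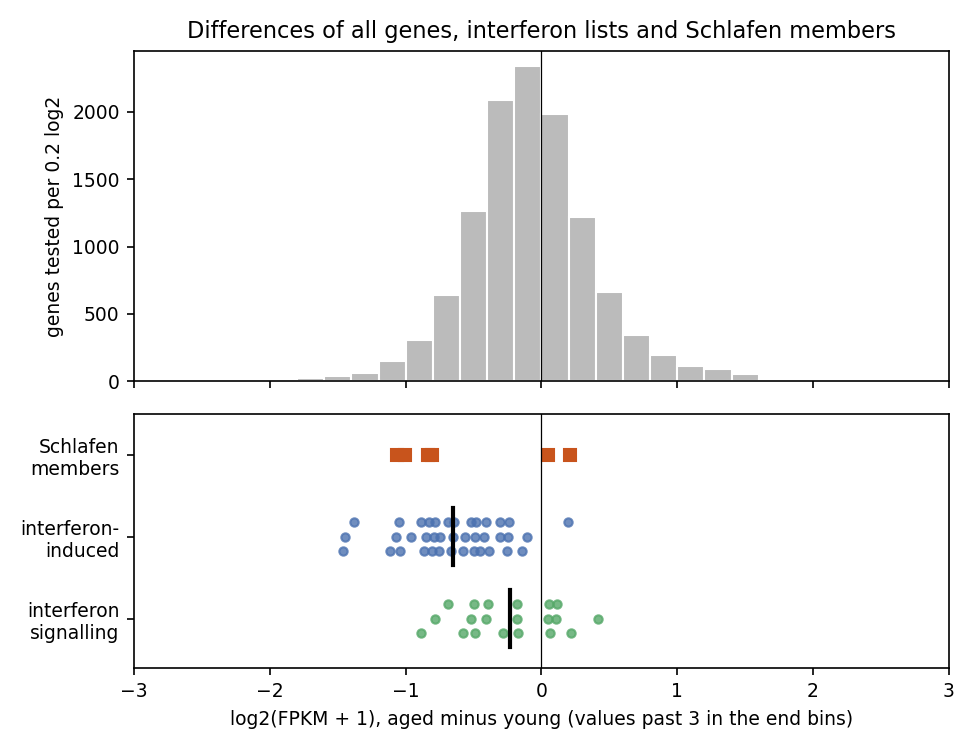
Upper panel, number of tested genes by log2 difference, aged minus young. Lower panel, the same difference for each gene of the interferon lists (circles, with a line at the median) and the 6 Schlafen genes (squares); the medians of the lists are -0.65 and -0.23, and the Schlafen genes form a pair near 0 and a group of 4 between -0.81 and -1.06.

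Markers of classical monocytes, cells in which Slfn4 and Slfn2 are also expressed, did not all have the same order. Ly6c2 was 125 and 203 FPKM in the young pair and 91.2 and 85.0 FPKM in the aged pair. Plac8 (710 and 575 against 495 and 410 FPKM) was also lower in both aged libraries. Ccr2 was 276 and 356 FPKM at 3 months and 345 and 400 FPKM at 15 months, and Chil3 was 576 and 332 FPKM in young against 682 and 469 FPKM in aged libraries, both overlapping. The cells of all libraries are labelled CCR2+, so the level of Ccr2 is not independent of the sort. All 5 monocyte markers were above 0 in all libraries and summed to 1718 and 1510 FPKM in the young pair and 1639 and 1394 FPKM in the aged pair, and their part in the Schlafen differences was not tested.

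The profile over the 4 libraries was compared with those of 6870 genes with a mean of at least 5 FPKM, as the root mean square distance between log2(FPKM + 1) values centred on each gene's mean. The nearest genes to Slfn4 were Phf11b (distance 0.04), Rtp4 (0.05) and Mettl17 (0.07), and Phf11b was 62.3 and 63.7 FPKM in young against 27.5 and 38.3 FPKM in aged libraries. Those nearest to Slfn5 were Dck (0.04), Nfya (0.05) and Topors (0.06), those to Slfn8 were Tec (0.03), Sfxn3 (0.04) and Ly6e (0.04), and those to Slfn9 were Rtca (0.05), Trip11 (0.06) and Ms4a4b (0.07). Slfn2 was nearest to Cd83 (0.04), Arg1 (0.07) and Cd14 (0.07), and Slfn1 to Lsmem1 (0.06), Pou2f2 (0.09) and Wash1 (0.09). Cd83 was 903 and 472 FPKM in the young pair and 806 and 634 FPKM in the aged pair, with the same wide young pair as Slfn2. Over only 4 libraries many genes share a profile, and these distances describe the libraries. The nearest family member was Slfn5 for Slfn4 (0.10), with 10 other genes closer, and Slfn8 for Slfn9 (0.18), with 71 closer. For Slfn2 and Slfn1 the nearest member was 0.65 and 0.59 away.

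**Figure D5:**
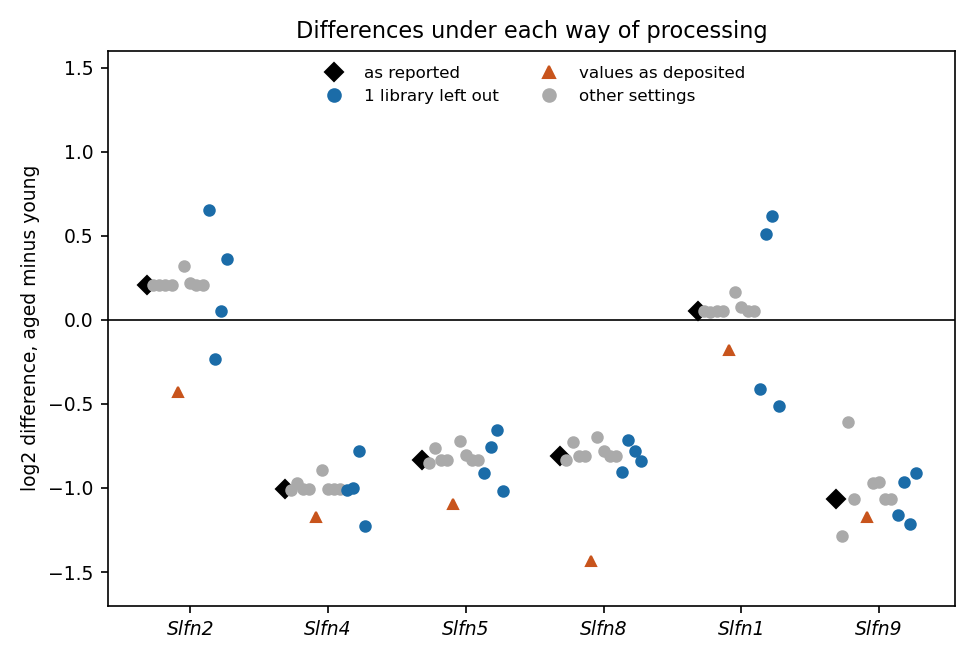
Log2 difference, aged minus young, of each Schlafen gene as reported (diamond), with 1 library left out (blue circles), on the values as deposited (triangle) and under other settings (grey circles). Slfn4, Slfn5, Slfn8 and Slfn9 stay below 0 under each setting drawn, between -1.43 and -0.61, and Slfn2 and Slfn1 fall on both sides of 0. For the genes that stay below 0, only the changes of scale could have reversed the sign.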

How the data were processed

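The authors deposited FPKM values of 24028 genes, 1 column for each of 4 pooled libraries. Per the labels' protocols, oligo-dT priming was followed by multiple displacement amplification, which can copy transcripts unevenly. The submitters' processing notes name bcl2fastq, BWA 0.7.12, DESeq2 and the build mm10 (GRCm38), with no role for each. The counter and its strand setting are not given in the labels or header. The deposited values had been divided by 12 read totals in rotation. Each was put back on its own library's total by undoing the divisor. On this scale the values of each Schlafen gene were whole multiples of 1 read within 0.02 reads. The reads given are the smallest whole numbers possible.

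limma 3.58.1 (R 4.3.3) was fitted to log2(FPKM + 1) with an intensity trend, over the 11656 genes with a mean of at least 1 FPKM, two-sided, with a threshold of 0.05 on the adjusted p. The pseudocount of 1 understates changes of low genes. The procedure was tested on simulated data with changes larger than those of the members, so that test does not show how it performs at their size. Other pseudocounts, filters, scalings, the values as deposited, a replicate block, no trend and leaving out each library were tried as alternatives. The members and lists were chosen with earlier results of these data known. Named genes were the members, other Slfn symbols, the 2 most abundant genes of each interferon list with Ifnar1, Stat2, Irf7, Irf9 and Irf1, the nearest 5 neighbours on each side and the 3 most alike genes, except that some genes the rule names are not reported here; AI662270, Ifnar2 and the other markers were named after their values were seen. Sequences are from RefSeq (GRCm38.p6), where all 6 members matched, and shared 50-base stretches are from GENCODE M21 transcripts. The lengths recovered from the values are shorter than the GENCODE exons in some genes. They are 4052 against 5965 bases in Slfn9, 1983 against 3411 in Slfn3 and 574 against 1102 in Slfn5os. The shared percentages may therefore differ in the gene models that were counted.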

Additional observations from a re-analysis of the deposited data

How the results depend on the processing

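No member passed the threshold in any alternative that kept all libraries. Slfn4, Slfn5, Slfn8 and Slfn9 kept their direction under each alternative tried. Since both aged values of each lay below both young values, only the changes of scale, including the values as deposited, could have reversed it. Over 13 alternatives (12 for Slfn9, which falls under a minimum of 5 FPKM) their log2 differences were -1.23 to -0.78, -1.10 to -0.65, -1.43 to -0.70 and -1.29 to -0.61, with limma's adjusted p between 0.340 and 0.960. The lowest value of Slfn8 and the shift of Slfn1 to -0.18 and Slfn2 to -0.43 came with the values as deposited, a scale on which the median of all genes was -0.31. There the aged over young ratio of the summed FPKM was 0.626 (0.859 as reported), and the medians of the interferon-induced and signalling lists were -0.85 and -0.54. With median ratio scaling, under which the median of all genes was 0.01, the ratio was 0.909 and the list medians -0.54 and -0.12. Without 1 library, Slfn1 ranged from -0.51 to 0.62 and Slfn2 from -0.24 to 0.65. With the replicate number as a block, 1 gene outside the family was called, Lars2 (limma, adjusted p 0.0459), against 0 without it, and the differences of the members were the same as without it (-1.01 for Slfn4). The replicate numbers share only a number, with a correlation of -3.84e-04 over 11656 genes between the replicate gaps of the ages. Where 1 library is left out, the lone library of that age is assumed to vary like the others. At 96 to 110 reads in the aged libraries, Slfn9 is limited by depth most.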

Other observations

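Genes of transfer RNA processing and of the stress response that follows transfer RNA damage were read beside the family, since Schlafen proteins act on transfer RNA. Of 14 tested, none passed limma's test over all genes, 2 had an unadjusted p below 0.05 and were lower in aged cells, beside 4.87% of all genes. Of these 2, Eif2ak2 is also in the interferon-induced list and was counted there. In 10 the aged pair lay wholly below the young pair, beside 26.2% of all genes, with a median log2 difference of -0.32. Atf4, the factor translated under stress, was 191 and 182 FPKM in young against 175 and 112 FPKM in aged libraries. Rnh1, an inhibitor of ribonucleases, was 97.1 and 74.4 FPKM in the young pair and 114 and 64.6 FPKM in the aged pair. Of 13 genes known to hold cells in quiescence, none passed and none had an unadjusted p below 0.05, with a median of -0.08 beside -0.09 for all genes. Btg2 was 408 and 381 FPKM at 3 months and 449 and 415 FPKM at 15 months, and Btg1 was 182 and 114 FPKM in young against 175 and 182 FPKM in aged libraries.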
